A study of Mus musculus with 67 samples.

Results

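The genes described here are 10 regulators that are known for high expression in early embryos and in tumors: Lin28a, Lin28b, Trim71, Hmga1, Hmga2, Igf2bp1, Igf2bp2, Igf2bp3, Arid3a and Dnmt3b. They were taken by gene name from tables that list 46983 gene IDs, and all 10 were found in each of the 14 libraries. The libraries are bulk RNA-seq of mouse forelimb buds, made to ask whether loss of the Hedgehog-pathway repressor GLI3 changes transcription before Hedgehog signaling begins in the limb and after it. Whole E9.25 forelimb buds (21–23 somites) were compared between WT (n = 3) and Gli3-/- embryos (n = 4), and the anterior part of E10.5 forelimb buds (32–35 somites) between WT (n = 4) and Gli3-/- embryos (n = 3). Gli3-/- embryos carried the Gli3Xt-J loss-of-function allele in every cell, on a Swiss Webster background that the WT embryos shared, and each library pooled limb bud pairs of several embryos (4 pairs at E9.25 and 2 at E10.5 in the sample labels). Whole buds were taken at the early stage and the anterior part at the later one, so stage and dissection cannot be told apart. In bulk RNA, fewer cells that express a gene and less RNA per cell cannot be told apart either.

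LIN28A and LIN28B are RNA-binding proteins that block the maturation of let-7 microRNAs, and let-7 in turn represses the mRNAs of Lin28a, Lin28b, Trim71, Hmga2, Arid3a and the Igf2bp family. TRIM71 is an RNA-binding ubiquitin ligase from the same developmental timing pathway as let-7 and LIN28, first worked out in nematodes. HMGA1 and HMGA2 are architectural chromatin proteins that bind AT-rich DNA, IGF2BP1, IGF2BP2 and IGF2BP3 bind and stabilize target mRNAs, ARID3A is an AT-rich interaction domain transcription factor, and DNMT3B is a de novo DNA methyltransferase of early development.

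Because the pathway turns on pairing with the microRNA seed, mature RefSeq sequences are shown for the microRNAs whose precursors lie in the long transcripts measured below, with let-7j from chromosome 3, outside both, for contrast. Capitals mark the seed, bases 2 to 8. The let-7 forms share 1 seed, GAGGUAG, which 10 mature names from 12 genes in this family carry, and let-7j differs from it.
let-7a-5p: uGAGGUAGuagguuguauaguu
let-7c-5p: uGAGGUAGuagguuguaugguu
let-7j: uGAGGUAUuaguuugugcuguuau
miR-125b-5p: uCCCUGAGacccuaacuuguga
miR-100-5p: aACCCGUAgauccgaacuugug
miR-99a-5p: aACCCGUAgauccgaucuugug

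The precursor hairpin is the form that LIN28 proteins grip, and GGAG is the short motif known for binding their zinc knuckles. Capitals mark GGAG, searched on the RNA strand only, in both let-7 hairpins that lie inside the measured long transcripts and in let-7b as a hairpin without it.
Mirlet7a-2: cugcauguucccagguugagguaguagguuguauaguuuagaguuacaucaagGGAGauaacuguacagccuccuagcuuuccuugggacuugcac
Mirlet7c-1: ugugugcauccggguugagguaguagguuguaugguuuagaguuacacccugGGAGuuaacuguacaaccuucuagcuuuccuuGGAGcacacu
Mirlet7b: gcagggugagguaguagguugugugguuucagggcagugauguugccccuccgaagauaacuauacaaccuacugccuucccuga
GGAG was present in 9 of the 12 let-7 family hairpins and in 129 of 288 RefSeq hairpins of 83 to 108 bases (44.8%). Mirlet7b, Mirlet7c-2 and Mir98 had no GGAG in the hairpin as listed, and in Mirlet7e 1 of its 2 copies fell in the mature sequence.

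Promoter windows are shown for Lin28a and Lin28b because both transcripts were lower at the later stage in both genotypes. Each runs from 250 bases before to 50 after a RefSeq start on GRCm38.p6, with CpG dinucleotides in capitals.
Lin28a, chr4:134018767-134019066, minus strand: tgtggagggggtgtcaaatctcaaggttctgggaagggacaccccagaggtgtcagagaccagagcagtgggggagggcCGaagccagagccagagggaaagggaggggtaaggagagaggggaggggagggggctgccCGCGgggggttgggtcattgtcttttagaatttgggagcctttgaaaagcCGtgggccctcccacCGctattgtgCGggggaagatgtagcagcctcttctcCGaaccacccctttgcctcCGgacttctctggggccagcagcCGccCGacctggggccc
Lin28b, chr10:45470152-45470451, minus strand: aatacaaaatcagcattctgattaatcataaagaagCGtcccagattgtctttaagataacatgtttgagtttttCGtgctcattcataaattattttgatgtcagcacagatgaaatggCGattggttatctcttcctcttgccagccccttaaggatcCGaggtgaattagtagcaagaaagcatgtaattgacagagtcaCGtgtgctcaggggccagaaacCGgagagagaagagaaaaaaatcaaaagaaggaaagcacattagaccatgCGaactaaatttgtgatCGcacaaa
The Lin28a window was 63.3% G or C with 10 CpG, and the Lin28b window was 39% G or C with 8 CpG, against a median of 7 CpG over all 32851 windows. Among the 9 windows of the 8 members with an entry, CpG counts ran from 8 (Lin28b) to 47 (Igf2bp2). The GLI motif GACCACCCA, searched on both strands, was in 0 of these 9 windows and in 0.253% of all windows. The E-box CACGTG was in the windows of Lin28b and Igf2bp3 and in 7.15% of all windows. Of the other motifs searched, the GC box GGGCGG was in 7 of the 9 windows and in 35.7% of all windows. CCAAT was in 3 of the 9 and in 37.4% of all, and TATAAA in 0 of the 9 and in 13.6% of all.

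Depth was estimated at 38.1 to 56.8 M reads per library (median 47.1 M), so that 1 TPM (a level scaled for gene length and library size) stood for 20.7 to 29.3 reads per kilobase. Gli3 itself, the targeted gene, had TPM of 44.2, 15.8 and 44.6 in the E9.25 WT libraries and 14.3 to 20.8 in E9.25 Gli3-/-. At E10.5 it had 73.4 to 89.7 in WT and 38.7 to 40.9 in Gli3-/-. The library labelled E9.25 WT replicate 2 thus lay within the Gli3-/- range for Gli3, and it listed 13276 genes at a TPM of 1 or more against 14162 or more in every other library. Its Foxf1 TPM, 0.221, lay below the 12.1 to 35.5 of the E9.25 Gli3-/- libraries. Member fold changes without it are given beside the results where leaving it out changed a sign or a call, with some others that it moved.

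Fold changes below are limma estimates on the log2(TPM + 1) scale, which understates changes of low genes. A gene was called at a Benjamini-Hochberg adjusted p under 0.05 over all genes tested, those that reached 1 TPM in 3 or more of the libraries entering that fit. All 10 members passed this filter in every comparison, with TPM from 9.55 to 742.

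Between E9.25 and anterior E10.5, Lin28a and Lin28b fell in both genotypes, and Trim71 and Hmga1 fell in Gli3-/-. Hmga2, Igf2bp2 and Igf2bp3 rose in WT, although Igf2bp2 and Igf2bp3 were not called when libraries were scaled by size factors. Trim71 was called lower in WT too in 5 of 10 other settings of the fit, and Hmga1 and Arid3a in 1 each. These changes are described first, by the role of each gene.

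Lin28a had TPM of 186, 165 and 141 in E9.25 WT and 25.5, 20.9, 16.6 and 9.55 in E10.5 WT. In Gli3-/- its TPM was 182, 290, 257 and 225 at E9.25 and 36.8, 20.6 and 28.5 at E10.5. The early and late libraries did not overlap in either genotype, and the lowest early library held several times the highest late one. Mean TPM was 9.03-fold lower at E10.5 in WT and 8.33-fold lower in Gli3-/-. The log2 fold change was −3.18 ± 0.28 (SE; limma adjusted p = 0.000126) in WT and −3.03 ± 0.20 (limma adjusted p = 4.71e-06) in Gli3-/-. Of the 15444 genes tested in WT, 10 had a lower log2 fold change than Lin28a, and 45 of 15434 did in Gli3-/-.

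Lin28b, the paralogue with the same cold-shock domain and zinc knuckle design, fell less. Its TPM was 105, 63.9 and 100 in E9.25 WT and 40.4, 38.3, 31.2 and 31.8 in E10.5 WT. In Gli3-/- it was 84.6, 117, 91.2 and 111 at E9.25 and 53.1, 40.1 and 54.1 at E10.5. The stages again did not overlap in either genotype. The log2 fold change was −1.29 ± 0.18 (limma adjusted p = 0.00102) in WT and −1.03 ± 0.15 (limma adjusted p = 0.00082) in Gli3-/-. The library labelled E9.25 WT replicate 2 was the lowest of the early libraries, and leaving it out gave −1.51 in WT.

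The balance between both paralogues was compared next. The log2 ratio of Lin28a to Lin28b, each as TPM + 1, averaged 0.89 ± 0.44 (SD, n = 3) in E9.25 WT and 1.22 ± 0.21 (n = 4) in E9.25 Gli3-/-. It averaged −0.997 ± 0.437 (n = 4) in E10.5 WT and −0.78 ± 0.23 (n = 3) in E10.5 Gli3-/-. Lin28a was the more abundant transcript in all 7 early libraries and the less abundant in all 7 late ones. The ratio fell by 1.89 on the log2 scale in WT and by 2.01 in Gli3-/- (exact two-sided permutation p = 0.0286 each, the smallest that 35 splits can give; adjusted p = 0.0571 over 16 tests of 4 ratios, which missed the threshold). A ratio could pass the adjustment only if most of the 16 tests reached that smallest p, however complete its own separation. That smallest p was not particular to the Lin28 ratio. Hmga1 to Hmga2 reached it with stage in both genotypes. Igf2bp1 to Igf2bp2 and Igf2bp1 to Igf2bp3 reached it with stage in Gli3-/- (−0.34 and −0.48) and with genotype at E10.5 (0.083 and 0.18).

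**Figure D1:**
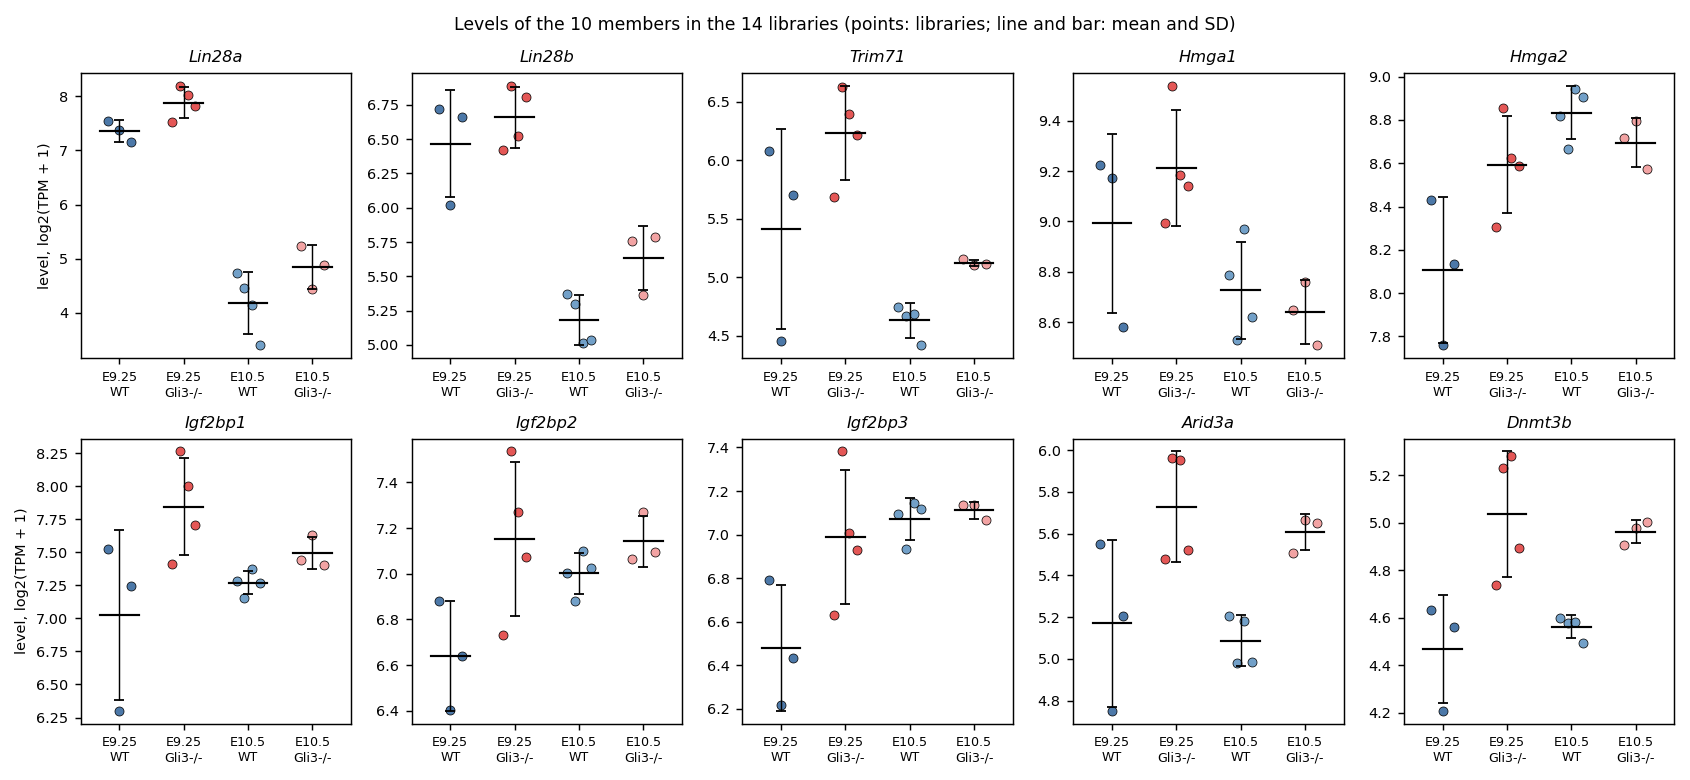
Level of each member as log2(TPM + 1) on the vertical axis (scaled for each panel) in E9.25 WT, E9.25 Gli3-/-, E10.5 anterior WT and E10.5 anterior Gli3-/- forelimb buds. Points are libraries, and lines with bars are the mean and SD; Lin28a and Lin28b sit lower in every E10.5 library than in any E9.25 library.

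Trim71 followed the Lin28 genes most clearly in Gli3-/-. Its TPM was 50.4, 98, 83.1 and 73.3 at E9.25 and 34.6, 33.4 and 33.6 at E10.5 in Gli3-/-, a log2 fold change of −1.11 ± 0.19 (limma adjusted p = 0.00206) with no overlap. In WT it was 66.7, 20.9 and 51.2 at E9.25 and 25.9, 24.4, 24.8 and 20.4 at E10.5. There the log2 fold change of −0.78 ± 0.33 missed the threshold (limma adjusted p = 0.0752), and the stages overlapped through 1 library. Leaving out that one, labelled E9.25 WT replicate 2, gave −1.26 in WT (limma adjusted p = 0.000258). With all libraries kept, Trim71 was called lower in WT in 5 of 10 other settings, with log2 fold changes from −1.12 to −0.71 over the 10.

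Hmga1 and Hmga2 parted, although the test of their ratio missed the threshold, which a ratio could not pass by its own separation alone. The log2 ratio of Hmga1 to Hmga2 changed with stage by −0.99 in WT and −0.68 in Gli3-/- (exact two-sided permutation, adjusted p = 0.0571 each). Hmga2 had TPM of 344, 216 and 280 in E9.25 WT and 451, 405, 491 and 478 in E10.5 WT, a rise of 0.72 ± 0.15 on the log2 scale (limma adjusted p = 0.00555; 0.55 and 0.00598 without E9.25 WT replicate 2) with no overlap. In Gli3-/- it had 316, 462, 394 and 383 at E9.25 and 420, 443 and 380 at E10.5, and the stages overlapped (0.10 ± 0.13, limma adjusted p = 0.622). Hmga1 had 597, 575 and 382 in E9.25 WT and 441, 368, 500 and 393 in E10.5 WT, which overlap (−0.27 ± 0.17, limma adjusted p = 0.212; −0.47 and 0.0253 without E9.25 WT replicate 3). It was called lower in WT in 1 of 10 other settings (limma adjusted p = 0.0299). In Gli3-/- Hmga1 fell, from 509, 742, 581 and 564 to 401, 433 and 363 (−0.58 ± 0.14, limma adjusted p = 0.0116). Leaving out E10.5 Gli3-/- replicate 3 lost that call (−0.51, limma adjusted p = 0.0611).

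The Igf2bp genes stayed high at both stages, with TPM from 73.4 to 306. Igf2bp3 had TPM of 110, 73.4 and 85.6 in E9.25 WT and 136, 121, 141 and 138 in E10.5 WT, a rise of 0.59 ± 0.13 on the log2 scale (limma adjusted p = 0.00812; 0.46 and 0.0131 without E9.25 WT replicate 2) with no overlap. Igf2bp2 had 117, 83.5 and 98.6 in E9.25 WT and 127, 117, 136 and 129 in E10.5 WT, a smaller rise of 0.36 ± 0.12 (limma adjusted p = 0.0345) with 1 late library just inside the early range. That call was lost when E9.25 WT replicate 2 or 3 or E10.5 WT replicate 1, 3 or 4 was left out (limma adjusted p from 0.0714 to 0.0877), and in 6 of 10 other settings, with 0.02 under size factors. In Gli3-/- neither passed the test, with log2 fold changes of 0.12 for Igf2bp3 and −0.01 for Igf2bp2. Igf2bp1 had TPM of 184, 77.9 and 151 in E9.25 WT against 142 to 164 in E10.5 WT, and 169 to 306 in E9.25 Gli3-/- against 169 to 197 in E10.5 Gli3-/-. Its change passed the test in neither genotype (0.24 ± 0.25 in WT, or −0.12 without E9.25 WT replicate 2, and −0.35 ± 0.18 in Gli3-/-), although leaving out E9.25 Gli3-/- replicate 1 brought the latter past it (−0.50, limma adjusted p = 0.0262).

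Arid3a and Dnmt3b showed stage differences within their spread. Arid3a had TPM of 25.9 to 45.9 at E9.25 and 30.6 to 35.9 at E10.5 in WT, and 43.6 to 61.3 against 44.5 to 49.7 in Gli3-/-. Dnmt3b had 17.5 to 23.8 against 21.5 to 23.2 in WT, and 25.7 to 37.9 against 29 to 31.1 in Gli3-/-. Neither was called (limma adjusted p from 0.55 to 0.76 over both genotypes), although Arid3a was called lower in WT in 1 of 10 other settings (limma adjusted p = 0.0339). Without E9.25 WT replicate 2 the stage change in WT went from −0.08 to −0.29 for Arid3a and from 0.10 to −0.03 for Dnmt3b.

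In WT, 2 of the 10 members were called lower at E10.5, where 10.6% of all genes tested were, and 3 were called higher, where 38.1% were. In Gli3-/-, 4 of 10 were called lower against 9.17% of all genes, and 0 were called higher against 15.8%. The members were chosen with earlier results of these data known, so these counts are descriptions. Lin28a and Lin28b were called lower in both genotypes, whose libraries are independent, as were 4.79% of the genes tested in both. The median log2 fold change was 0.01 over the members and 0.34 over all genes in WT, and −0.24 and 0.06 in Gli3-/-. Relative to the WT median, Hmga2 stood at 0.39, Igf2bp3 at 0.25 and Igf2bp2 at 0.02. Scaling by median-of-ratios size factors, which turned the WT split of calls from 5885 higher and 1635 lower to 3184 higher and 3274 lower, gave 0.38 for Hmga2 (limma adjusted p = 0.0306), 0.25 for Igf2bp3 (limma adjusted p = 0.0799) and 0.02 for Igf2bp2 (limma adjusted p = 0.888). Quantile scaling gave 2668 higher and 3050 lower in WT, and in Gli3-/- it gave 2342 and 2186, and size factors 2428 and 2225, against 2437 and 1416 as reported. The falls of Lin28a and Lin28b were called under each alternative tried.

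**Figure D2:**
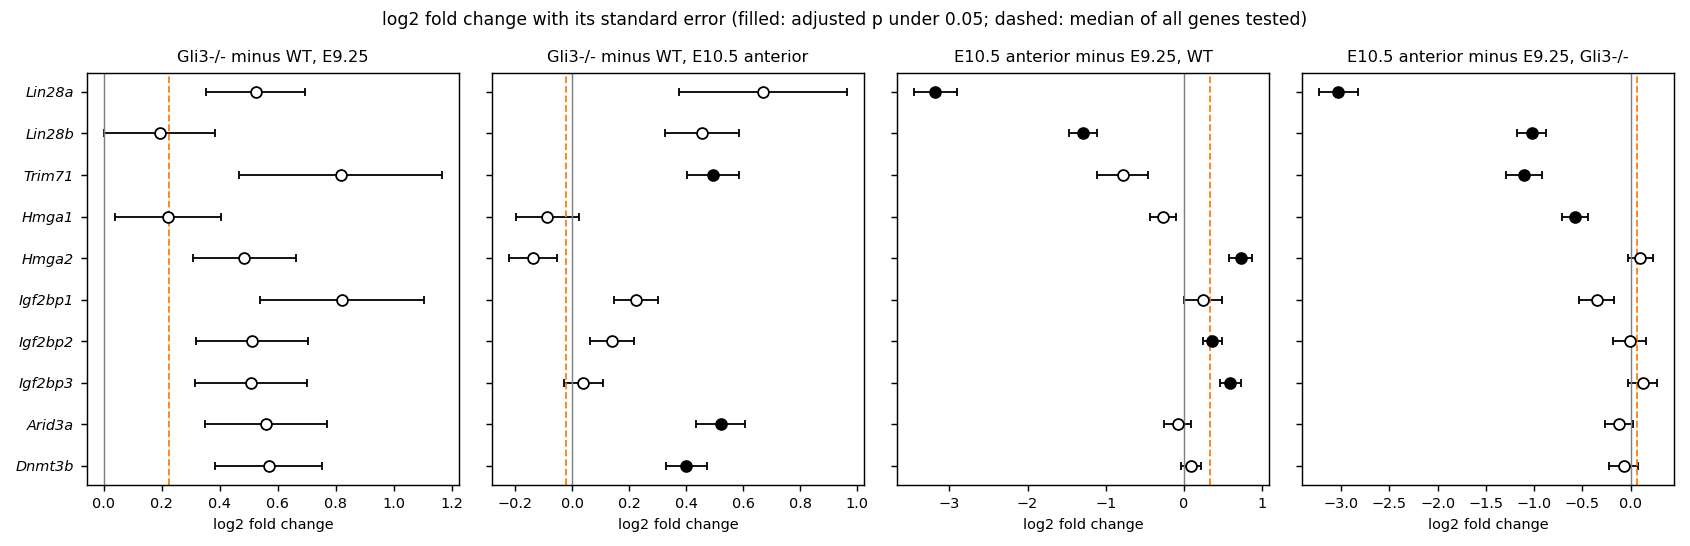
log2 fold change (horizontal axis) of the 10 members in the 4 comparisons of 2 groups, with standard errors; filled points passed the test, and the dashed line is the median of all genes tested. In both stage panels Lin28a lies farthest to the left, at −3.18 and −3.03, and at E10.5 the filled genotype points are Trim71, Arid3a and Dnmt3b.

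The order of the members by mean TPM changed with stage. In E9.25 WT, Hmga1 (518) and Hmga2 (280) led, followed by Lin28a (164) and Igf2bp1 (137), and Dnmt3b was lowest (21.3). In E10.5 WT, Hmga2 (456) and Hmga1 (426) led and Lin28a was lowest (18.2), next to Dnmt3b (22.6). The neighbours Hmga1 and Hmga2 overlapped in the E10.5 WT libraries, as did Lin28a and Dnmt3b.

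Loss of Gli3 was examined next. In anterior E10.5 buds Trim71, Arid3a and Dnmt3b rose in Gli3-/-. Trim71 had TPM of 20.4 to 25.9 in WT and 33.4 to 34.6 in Gli3-/-, a log2 fold change of 0.49 ± 0.09 (limma adjusted p = 0.0162). Arid3a had 35.9, 30.6, 35.3 and 30.6 in WT and 44.5, 49.7 and 49.3 in Gli3-/- (0.52 ± 0.09, limma adjusted p = 0.00998). Dnmt3b had 23.2, 22.9, 22.9 and 21.5 in WT and 29, 30.5 and 31.1 in Gli3-/- (0.40 ± 0.07, limma adjusted p = 0.0134). In each of these genes every Gli3-/- library lay above every WT library.

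Both Lin28 genes had higher means in E10.5 Gli3-/-, by 1.58-fold for Lin28a and 1.39-fold for Lin28b in TPM, and neither passed the test. Lin28a had a log2 fold change of 0.67 ± 0.30 (limma adjusted p = 0.253), with 2 WT libraries (25.5 and 20.9) above the lowest Gli3-/- library (20.6). Lin28b had 0.46 ± 0.13 (limma adjusted p = 0.0874), with a Gli3-/- library at 40.1 just under the highest WT library at 40.4, and leaving out E10.5 Gli3-/- replicate 2 brought it past the threshold (limma adjusted p = 0.0366). Igf2bp1 had 142 to 164 in WT and 169 to 197 in Gli3-/-, without overlap, at 0.22 ± 0.08 (limma adjusted p = 0.151). Hmga1, Hmga2, Igf2bp2 and Igf2bp3 had log2 fold changes between −0.14 and 0.14 and overlapped.

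Of the 10 members, 3 were called higher at E10.5 against 1.84% of all genes tested, and 4 did not overlap with the Gli3-/- libraries higher, against 7.87%. These counts are descriptions too, since the members were chosen with earlier results of these data known. The 3 calls were all lost without E10.5 Gli3-/- replicate 3 (limma adjusted p of 0.053 to 0.0799), when the count over all genes fell from 747 to 301, and their log2 fold changes then were 0.50, 0.50 and 0.38. The Trim71 call was also lost without E10.5 Gli3-/- replicate 1 (limma adjusted p = 0.0618). All 3 were lost too in 1 model of all 14 libraries, at the same log2 fold changes (limma adjusted p of 0.628 for Trim71, 0.173 for Arid3a and 0.206 for Dnmt3b). Other cells and tissue domains differed between these groups too. The summed TPM of 9 surface ectoderm and ridge markers was 224 to 295 in WT and 340 to 384 in Gli3-/-, with Fgf8, a ridge growth factor, as the 1 called (1.36). The other 8 were not called, 5 of the 9 had lower values in Gli3-/- (Cdh1, Krt8, Krt18, Esrp1 and Sp8, from −0.42 to −0.12), and the list median was −0.12. Of 8 limb mesenchyme markers, 5, among them Meis2 and Msx1, were called lower, where 2.93% of all genes were, and 1, Fgf10, higher. Their sum was 974 to 1177 in WT and 725 to 798 in Gli3-/-. Primordial germ cell markers (7) summed to 24.6 to 29.4 in WT and 33.1 to 34.2 in Gli3-/-. Of the 4 tested, 2 were called higher and 0 lower. Erythroid markers (10) summed to 12496 to 17369 in WT and 14872 to 42243 in Gli3-/-, which overlap. Of these, 0 were called, and the list median was 0.56, beside −0.02 over all genes. The part of these cells and domains in the members' differences was not tested.

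At E9.25, no member was called between genotypes, where 0.136% of all genes were (20 of 14760 with limma, and 3247 at an unadjusted p under 0.05, 8 of the 10 members among them). Leaving out 1 library moved the 20 to between 2 (without E9.25 WT replicate 3) and 196 (without E9.25 WT replicate 1). Gli3 itself, the targeted gene, was not called here either (−0.74 ± 0.32, limma adjusted p = 0.223). The lack of calls therefore does not show that the members were unchanged. All 10 members had a positive log2 fold change, as had 73.9% of all genes, and the median was 0.52 over the members and 0.23 over all genes. Igf2bp1 and Trim71 were farthest apart, at 0.82 ± 0.28 and 0.82 ± 0.35 (limma adjusted p = 0.217 and 0.221). Leaving out the library labelled E9.25 WT replicate 2 gave 0.46 and 0.34, with Lin28b at −0.03, Hmga2 at 0.31 and 9 of the 10 members positive. Arid3a then went from 0.56 to 0.35. Dnmt3b was the 1 member whose groups did not overlap, with 23.8, 17.5 and 22.6 in WT and 25.7, 36.6, 37.9 and 28.7 in Gli3-/- (0.57 ± 0.18, limma adjusted p = 0.217), against 9.97% of all genes. Quantile scaling turned the split of the calls over all genes from 16 higher and 4 lower to 17 and 13, and size factors to 16 and 10.

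Flank tissue also differed at E9.25. The summed TPM of 7 flank and lateral plate mesoderm markers was 20.2 to 47.3 in WT and 61.8 to 175 in Gli3-/-, with Foxf1 and Gata4 called higher, and at E10.5 it was 32.9 to 54.4 in WT and 25 to 38.5 in Gli3-/-. With stage, Hand1, Gata4, Wt1 and Upk3b were called lower in both genotypes and Foxf1 in Gli3-/-, while Tbx18 of the same list was called higher in both (2.61 and 2.58). At E10.5, 5 of the 7 were under 1 TPM in every WT library and 6 in every Gli3-/- library, so those that fell passed the filter through the early libraries. Endothelial markers (8) summed to 66.4 to 111 in E9.25 WT and 123 to 183 in E9.25 Gli3-/-, without overlap, with none called and a median log2 fold change of 0.64. With stage, macrophage markers went from a sum under 1 TPM at E9.25 to between 9.5 and 15.9 at E10.5, and the sum of muscle progenitor markers went from between 5.88 and 11.5 to between 26.7 and 49.3. The part of these cells in the members' differences was not tested. The limb mesenchyme markers, 8 of 8, were above 0 in every group, with sums from 725 to 1177.

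The interaction of stage and genotype asks whether the stage change itself differed between genotypes. No member was called, against 2.13% of all genes tested (348 of 16368 with limma, and 3443 at an unadjusted p under 0.05, 2 of the 10 members among them). Leaving out 1 library moved the 348 to between 150 (without E10.5 Gli3-/- replicate 3) and 1433 (without E9.25 WT replicate 1). The split of the calls, 78 positive and 270 negative, was 164 and 181 under quantile scaling and 133 and 229 under size factors. The stage change of Lin28a differed by 0.15 ± 0.38 and that of Lin28b by 0.26 ± 0.25 on the log2 scale (SE), and a p above the threshold does not show that they were alike. Hmga2 came closest, at −0.62 ± 0.21 (limma adjusted p = 0.139), since it rose by 0.72 in WT and differed by 0.10 in Gli3-/-. Without E9.25 WT replicate 1 it was −0.78 (limma adjusted p = 0.0302), and without E9.25 WT replicate 2 it was −0.45 (limma adjusted p = 0.288). Leaving out the latter also turned Trim71 from −0.32 to 0.16 and Arid3a from −0.04 to 0.17. The same omission moved Lin28b from 0.26 to 0.49, Igf2bp1 from −0.60 to −0.24 and Dnmt3b from −0.17 to −0.04. For the members' median, −0.32, the median over all genes was −0.24.

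**Figure D3:**
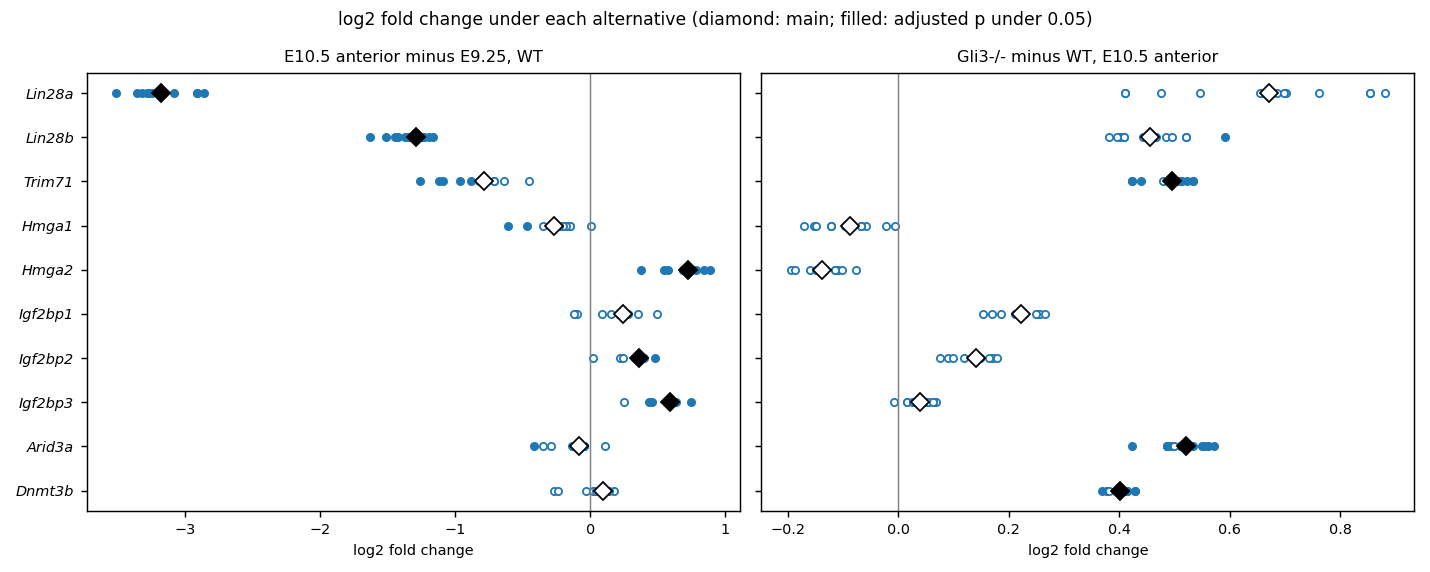
log2 fold change (horizontal axis) of each member under each other setting tried, for stage in WT (left) and genotype at E10.5 (right). Diamonds are the values reported, circles the other settings, and filled symbols passed the test; Lin28a stays between −3.51 and −2.86 in the stage panel, where Hmga1, Igf2bp1, Arid3a and Dnmt3b have circles on both sides of 0.

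The other genes of the pathway were taken from lists, which were also chosen with earlier results of these data known. Counts set beside shares of all genes are thus descriptions. Long transcripts that carry let-7 precursors were higher at E10.5. The RNA listed as 2610203C20Rik (RefSeq name Mir100hg, chromosome 9, 41376397 to 41617772, plus strand, mm10) spans the hairpins of Mir100, Mirlet7a-2 and Mir125b-1 on its own strand. Its TPM was 0.886, 0.18 and 0.245 in E9.25 WT and 40.5, 34.1, 42.3 and 74.7 in E10.5 WT. In Gli3-/- it was 0.646 to 0.968 at E9.25 and 20.7, 26.3 and 15.9 at E10.5. It was under 1 TPM in all 7 early libraries and passed the filter through the late ones, so its stage difference of 5.06 in WT and 3.61 in Gli3-/- on the log2 scale is a description. The difference between these, −1.45 ± 0.35, is a description for the same reason. At E10.5 every Gli3-/- library lay below every WT library (−1.12 ± 0.25, limma adjusted p = 0.0373).

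Mir99ahg (chromosome 16, 77236317 to 77691403, plus strand, mm10), which spans Mir99a, Mirlet7c-1 and the miR-125b-5p sequence of Mir125b-2, rose too. Its TPM was 1.54 to 2.91 at E9.25 and 7.28 to 10.3 at E10.5 in WT, and 2.83 to 4.84 against 9.6 to 11.2 in Gli3-/-. The log2 fold changes were 1.59 ± 0.19 (limma adjusted p = 0.000541) in WT and 1.24 ± 0.17 (limma adjusted p = 0.000495) in Gli3-/-. The 10 let-7 family hairpins listed as genes had at most 1.95 TPM, and libraries of 100-base reads did not measure mature let-7.

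**Figure D4:**
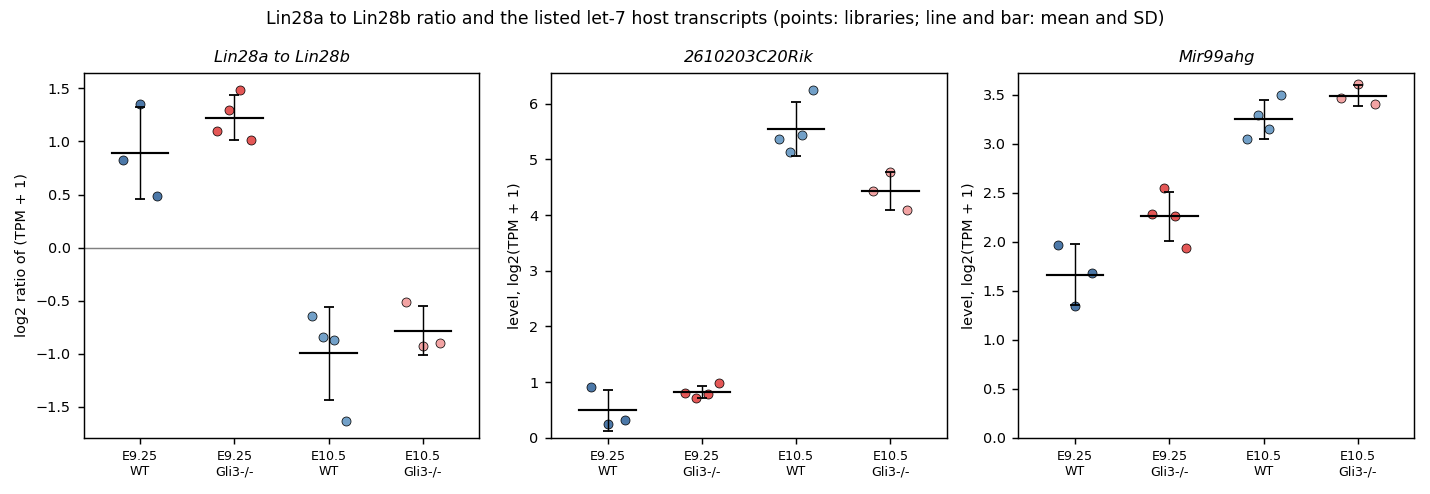
log2 ratio of Lin28a to Lin28b (left; each as TPM + 1) and levels, log2(TPM + 1), of 2610203C20Rik (middle) and Mir99ahg (right) in the 4 groups. Points are libraries, and lines with bars are the mean and SD; the ratio is above 0 in all early libraries and below 0 in all late ones, where both long RNAs are higher.

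Among 20 genes of microRNA processing, 8 rose and 1 fell with stage in WT and 5 rose and 0 fell in Gli3-/-, with list medians of 0.50 and 0.07 on the log2 scale beside 0.34 and 0.06 over all genes. Of all genes tested, 38.1% were called higher and 10.6% lower in WT, and 15.8% and 9.17% in Gli3-/-, and the same shares stand behind the other lists. Zcchc11, the uridylyltransferase TUT4 that LIN28A recruits to let-7 precursors, rose in both (1.34 ± 0.33, limma adjusted p = 0.011, and 0.98 ± 0.11, limma adjusted p = 0.000142) and was the 1 gene of the list called with loss of Gli3 at E10.5 (0.41 ± 0.08, limma adjusted p = 0.0208). Dis3l2, the exonuclease that degrades uridylated let-7 precursors, rose in both as well, from 11.3–12.1 to 19–24.3 TPM in WT and from 13.1–17.3 to 20.1–21.3 in Gli3-/-. Ago1 and Ago4, Argonaute proteins of the silencing complex, were called higher at E10.5 in both genotypes.

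Among 20 other genes known as let-7 targets, 8 rose and 5 fell in WT and 4 rose and 5 fell in Gli3-/-. Nr6a1, an orphan nuclear receptor that also acts in trunk patterning, fell from 21.7–40.4 to 4.45–5.58 TPM in WT (−2.43 ± 0.21, limma adjusted p = 0.000112) and from 39.8–61.8 to 2.59–5.81 in Gli3-/- (−3.38 ± 0.23, limma adjusted p = 4.91e-06). Myc, a growth regulator, fell by 1.66 ± 0.17 (limma adjusted p = 0.000277) and by 2.06 ± 0.15 (limma adjusted p = 9.36e-06) on the same scale. Igf1r and Insr, growth factor receptors, rose in WT by 1.04 and 1.10. The list median was 0.40 in WT and −0.04 in Gli3-/-, beside 0.34 and 0.06 over all genes. At E10.5, 4 of the 20 were called higher in Gli3-/-, where 1.84% of all genes were, and 0 lower: Thbs1 (0.75), Cdk6 (0.70), Ccnd1 (0.59) and Arid3b (0.38).

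Of 10 tested genes of DNA methylation and its readout, 7 rose with stage in WT (38.1% of all genes) and 2 in Gli3-/- (15.8%), with Dnmt3a, the paralogue of Dnmt3b, at 1.28 ± 0.19 (limma adjusted p = 0.00137) and 0.65 ± 0.20 (limma adjusted p = 0.0402). Of 16 tested paralogues of the members, 5 rose and 1 fell with stage in WT, and 3 rose and 1 fell in Gli3-/-, beside the same shares of all genes. Of 15 pluripotency and epiblast genes, at most 4 passed the filter in any comparison, and Sall4, a zinc finger factor that also acts in limb buds, fell with stage (−0.84 in WT and −0.52 in Gli3-/-) and rose with loss of Gli3 at E10.5 (0.85 ± 0.14, limma adjusted p = 0.0101). Fgf4, a ridge growth factor on this list, was at 0 in every E9.25 library, at 0.501 to 1.34 TPM in E10.5 WT and at 5.63 to 10.4 TPM in E10.5 Gli3-/-. Klf4, a zinc finger factor, had 0.30 to 0.553 TPM in E9.25 WT and 1.19 to 1.87 in E10.5 WT. Both passed the filter through the libraries where they were high. Of 5 RNAs known to be bound by IGF2BP proteins, Igf2 and H19 rose and Myc fell with stage in both genotypes, and Cd44 rose in Gli3-/-. Relative to the WT median of all genes, the rise of H19 was 0.07 and that of Igf2 was 0.63.

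The 3 genes whose pattern over the 14 libraries was most like that of Lin28a were Hoxd1, Amph and Tnni1, with root mean square differences of 0.33, 0.38 and 0.42 in centred log2(TPM + 1), against a median of 2.82 over the 171 genes compared. For Lin28b they were Snhg4, Pdk1 and Tcf7, with 0.22, 0.24 and 0.24 against a median of 1.10 over 3307 genes. Hoxd1, the closest to Lin28a, had TPM of 6.69 to 11.1 in E9.25 WT and 0.223 to 0.911 in E10.5 WT. Amph had 0.309 to 0.606 and Tnni1 0.495 to 0.934 TPM in E10.5 WT. All 3 were thus under 1 TPM there, where Lin28a had 9.55 to 25.5, and the scale understates the falls of such low genes. These are descriptions over libraries that share their stage difference.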

How the data were processed

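RNA of pooled mouse forelimb buds was sequenced as 100-base single reads in 14 libraries of 4 groups. Alignment by the authors used HISAT2, and they deposited 1 gene table per library on mm10, with TPM, FPKM and coverage signal per gene; the counter, its version and its use of strand are not given in the sources used here. The deposited TPM were tested here, the deposited FPKM served as an alternative for ratios, and the deposited coverage signal with FPKM gave estimated read totals. TPM of lines with 1 gene ID were summed, and log2(TPM + 1) was fitted with limma 3.58.1 (trend) in R 4.3.3, per comparison, with Benjamini-Hochberg adjustment. The study used DESeq2, which needs counts not used here. Tests were checked on simulated data. The libraries of a group are separate pools per the study's methods. Named genes were all 10 members, at most 4 called genes per list by size of change, 3 likeness matches per Lin28 gene (SD at least 0.75 of the member's), and Gli3. Members and lists were chosen with earlier results of these data known. Sequences are from RefSeq on GRCm38.p6. Of the 10 members, 7 overlap another listed gene, 6 of them one that reached 1 TPM (Malsu1, at 22.1 to 43.7 TPM on the opposite strand of Igf2bp3, was the highest), and reads of such pairs cannot be told apart without strand. How reads that match several places were counted is not given in the sources used here either, so the level of Hmga1 is uncertain. Replicate numbers were treated as names and not as a pairing.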

Additional observations from a re-analysis of the deposited data

Results flagged for a closer look

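No library stood apart by Dixon's ratio in the 30 sets of 4 libraries tested for the members and 5 other genes, where chance marks about 1 in 20 sets. Groups of 3 libraries, E9.25 WT with its doubted replicate 2 and E10.5 Gli3-/-, could not be tested this way. No member's stage change differed between genotypes by the test of that difference. Of the other listed genes named by the rule, 10 did (limma adjusted p under 0.05), where 2.13% of all genes tested did (348 of 16368). The host RNA 2610203C20Rik had a smaller stage difference in Gli3-/- (−1.45 on the log2 scale). The flank markers Foxf1 (−3.59), Gata4 (−2.99) and Hand1 (−2.81), the limb mesenchyme marker Meis2 (−1.79) and the keratin Krt18 (−1.74) had lower stage changes in Gli3-/- than in WT. The ridge growth factors Fgf8 (2.67) and Fgf4 (2.08), Tfap2c (1.34), listed as a germ cell marker, and Lbx1 (1.07), a muscle progenitor factor, had higher ones. Of these, 2610203C20Rik, Foxf1, Gata4, Hand1, Lbx1 and Fgf4 were under 1 TPM in every library of at least 1 group, and passed the filter through the groups where they were higher. Their values are descriptions. Fgf4 had no signal in any E9.25 library, so its value is the same as its genotype difference at E10.5 (2.08).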

How the results depend on the processing

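Of 920 member values recomputed under other settings, 848 kept their direction and side of the threshold, 23 lost a call, 16 gained one and 33 changed sign. Every fall of Lin28a and Lin28b with stage kept its call under each setting. In 1 model of all 14 libraries, 1 member was called between genotypes at E9.25 (Dnmt3b) and 0 at E10.5, and with sample quality weights 1 was called in the interaction (Hmga2). The counts without 1 library ranged from 0 to 4 members for genotype at E10.5 and from 0 to 1 for the interaction, and 0 was reached without E10.5 Gli3-/- replicate 3.

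With the replicate number of the titles as a block, 0 members were called between genotypes at E10.5 and 164 of all genes, against 498 with the table numbers as the block, and the Lin28a interaction was −0.14. The block gave 66 genes at E9.25, 4699 for stage in WT and 42 for the interaction. Same-numbered libraries did not deviate together by title (r from −0.182 to 0.123). By table number the E10.5 pairs had r of 0.05, 0.292 and 0.171, and pairs of unlike table number had −0.16 to 0.123. A pairing by table number at E10.5 is thus not excluded, but the numbers were treated as names. With the table numbers as the block, Trim71, Arid3a and Dnmt3b kept their calls between genotypes at E10.5. Each of these 3 passed in 9 of 11 other settings.

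The member values that changed sign were at most 0.32 in size in the fit reported, 0 of them called, and at most 0.27 after the change. Under size factors Lin28b (−0.042) and Hmga1 (−0.015) turned at E9.25, Igf2bp1 (−0.10) and Dnmt3b (−0.23) with stage in WT, and Arid3a (0.23) and Dnmt3b (0.093) in the interaction. Under quantile scaling Dnmt3b (−0.27) turned with stage in WT, Igf2bp2 (0.052) in Gli3-/-, and Arid3a (0.20) and Dnmt3b (0.13) in the interaction. Under quality weights Hmga1 (0.0042) turned in WT, Igf2bp2 (0.013) in Gli3-/-, and Lin28a (−0.018) and Arid3a (0.031) in the interaction. The cause of these changes was not tested.

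Leaving out 1 library gave −0.031 to 0.32 for Lin28b at E9.25 and −0.0078 to 0.063 for Igf2bp3 at E10.5. With stage in WT it gave −0.12 to 0.50 for Igf2bp1, −0.29 to 0.11 for Arid3a and −0.034 to 0.18 for Dnmt3b, and in Gli3-/- −0.15 to 0.12 for Igf2bp2 and −0.17 to 0.0086 for Dnmt3b. In the interaction it gave −0.12 to 0.36 for Lin28a, −0.66 to 0.16 for Trim71 and −0.23 to 0.17 for Arid3a. The ratio of Hmga1 to Hmga2 gave −0.48 to 0.0013 at E9.25 and −0.0086 to 0.10 at E10.5, and Igf2bp1 to Igf2bp2 −0.36 to 0.014 with stage in WT.

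Over all genes, counts moved by over 1.5 times at E9.25 from 20 to 0 without a filter (limma), 53 with quality weights and 796 in 1 model, at E10.5 from 747 to 391, 1356 and 386, and with quality weights to 6520 from 3853 for stage in Gli3-/- and to 830 from 348 for the interaction.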
